A study of Caenorhabditis elegans with 2 samples.

Results

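The nuclear genome of Caenorhabditis elegans carries 209 genes annotated in RefSeq as pseudogenic tRNA genes, and the peaks of an F26F4.8-EGFP chromatin immunoprecipitation were read at each of them. All annotated loci were taken, whether or not they had a peak, on assembly WBcel235 (ce11). A peak was assigned to a locus when its summit lay in the gene or within 200 bp of either end, and summits within 200 bp of a gene of biotype tRNA, here called a functional tRNA gene by its annotation, were set aside. The experiment used whole L4 larvae of strain OP776, aged 48 hours and synchronised from starved L1 larvae after bleaching. The animals carried the transgene wgIs776, in which F26F4.8 is fused to TY1, EGFP and 3xFLAG, together with unc-119(+), in an unc-119 (tm4063) background. RefSeq annotates F26F4.8 as a C2H2-type domain-containing protein, and its fusion was recovered from sonicated chromatin with an anti-GFP antibody in 2 biological replicates. There was 1 group, so the same loci were compared with functional tRNA genes and with the genome, not with another condition. No untagged or mock precipitation was used here, and the promoter that drives the transgene is not given in the sources used here. Because whole animals were used, strong binding in few cells and weak binding in many cannot be told apart.

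RNA polymerase III transcribes tRNA genes from promoters inside the gene. Its assembly factor TFIIIC reads an A box near the 5′ end and a B box further downstream, and transcription stops at a run of T after the 3′ end. A pseudogenic tRNA gene is a sequence that resembles a tRNA gene but whose predicted product departs from the tRNA fold. The acceptor stem, formed by pairing of the 5′ and 3′ ends of a tRNA, is the part that carries the amino acid. Such a locus can keep the letters of both boxes while the paired stems are lost.

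Peaks in the authors' conservative thresholded set are called listed, and these pass an irreproducible discovery rate (IDR) of 0.01 between the replicates. The 7 listed loci whose sequence is shown here are the ones the results turn on, and the strongest locus with an unlisted peak, Y22D7AR.t1, follows them. Sequences are from RefSeq on WBcel235, 5′ to 3′ on the transcribed strand, and capitals mark the closest match to the A box (first run) and to the B box (second run) where it had at most 2 mismatches. The A box was searched with the letters TGGCCGAGTGG, allowing any base at positions 2, 5 and 6. The B box was searched with the letters GGTTCGATTCC, allowing any base at position 8. Both searches were on the transcribed strand inside the gene, where the 2 motifs are compared with every 11-base stretch. No position was required. The A box match of D1046.t1 begins at base 21, where those of the other loci shown with it begin at base 7 or 8. That of T13B5.t1, shown further below, begins at base 27. The loci lie at chrII:7001627-7001698 (+) for C52E12.t1, chrIV:2740214-2740286 (+) for Y94H6A.t1, chrIV:8927200-8927273 (+) for D1046.t1, chrII:14617081-14617150 (+) for F19H8.t1, chrIV:2664242-2664314 (+) for Y69A2AR.t3, chrIV:2659013-2659085 (-) for Y69A2AR.t1, chrIII:3112144-3112215 (-) for Y53G8B.t9 and chrIII:1743249-1743320 (-) for Y22D7AR.t1.
C52E12.t1: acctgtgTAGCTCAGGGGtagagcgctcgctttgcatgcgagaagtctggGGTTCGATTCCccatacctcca
Y94H6A.t1: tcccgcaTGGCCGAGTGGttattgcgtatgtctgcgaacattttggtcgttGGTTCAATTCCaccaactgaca
D1046.t1: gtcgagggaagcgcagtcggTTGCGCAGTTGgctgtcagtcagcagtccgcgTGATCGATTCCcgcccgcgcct
F19H8.t1: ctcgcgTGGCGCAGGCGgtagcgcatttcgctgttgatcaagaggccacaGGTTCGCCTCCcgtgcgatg
Y69A2AR.t3: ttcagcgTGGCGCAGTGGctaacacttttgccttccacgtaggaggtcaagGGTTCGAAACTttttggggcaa
Y69A2AR.t1: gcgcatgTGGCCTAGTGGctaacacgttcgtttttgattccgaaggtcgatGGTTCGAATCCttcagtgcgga
Y53G8B.t9: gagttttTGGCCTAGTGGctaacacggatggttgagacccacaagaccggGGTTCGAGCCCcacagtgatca
Y22D7AR.t1: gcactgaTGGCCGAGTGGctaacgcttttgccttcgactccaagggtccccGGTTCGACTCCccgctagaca

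For contrast, the next 6 sequences are loci without any ranked peak, members of the largest sequence families and the functional gene closest to C52E12.t1. T13B5.t1 (chrII:1102053-1102124, -), F56D12.t2 (chrII:1333251-1333322, -) and VW02B12L.t1 (chrII:11441190-11441264, +) had no peak. K02E7.t1 (chrII:1088444-1088516, -) and F56D12.t1 (chrII:1331984-1332055, +) had an unlisted peak each. The tRNA-Ala gene B0491.t2 lies at chrII:11334013-11334084 (-).
T13B5.t1: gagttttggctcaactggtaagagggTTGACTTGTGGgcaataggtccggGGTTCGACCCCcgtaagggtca
F56D12.t2: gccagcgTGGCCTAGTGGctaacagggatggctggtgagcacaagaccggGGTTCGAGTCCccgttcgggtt
VW02B12L.t1: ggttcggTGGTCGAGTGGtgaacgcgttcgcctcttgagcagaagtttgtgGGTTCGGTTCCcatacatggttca
K02E7.t1: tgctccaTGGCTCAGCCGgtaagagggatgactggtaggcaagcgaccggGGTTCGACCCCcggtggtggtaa
F56D12.t1: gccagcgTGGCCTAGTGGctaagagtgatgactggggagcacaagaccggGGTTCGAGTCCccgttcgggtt
B0491.t2: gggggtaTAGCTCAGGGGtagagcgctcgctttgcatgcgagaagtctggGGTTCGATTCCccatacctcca
F56D12.t1 and F56D12.t2 belong to the same family and both match the A and B boxes without a mismatch. The strongest peak at F56D12.t1 was unlisted, with a pooled signal of 42.6 and a global IDR of 0.311, and F56D12.t2 had none. Its summit lay at -135 bp from the 5′ end of F56D12.t1, upstream of both boxes. Ranked summits lay in 49.1% of 500-bp genome windows, so this difference is not read as one in binding.

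Few pseudogenic tRNA genes carried a listed peak. A listed peak was found at 8 of the 209 loci (3.83%, 95% exact Clopper-Pearson interval 1.67 to 7.40%), and an unlisted peak of the ranked list at a further 133. The other 68 had no ranked peak, and at 2 of them, Y59A8B.t2 and Y51A2B.t2, the only ranked summit had been set aside as near a functional tRNA gene. Among all 109990 ranked peaks 0.889% were listed, and 0.481% of 500-bp windows of the nuclear genome held a listed summit. Ranked peaks of any kind were common in the genome, with a summit in 49.1% of those windows, and 141 of the pseudogenic loci (67.5%, interval 60.7 to 73.8%) had one. Functional tRNA genes had a listed peak at 360 of 612 (58.8%, interval 54.8 to 62.8%) and any ranked peak at 555 (90.7%). In replicate 1's own thresholded list, without replicate 2, the counts were 6 pseudogenic loci and 204 functional genes, and in that of replicate 2 they were 6 and 208. Those lists held 376 and 366 peaks, against 978 in the conservative set. At an IDR of 0.05 there were 15 pseudogenic loci in place of 8, with no count of functional genes or of all peaks made there. Over the 555 functional genes with a ranked peak the upper quartile of the global IDR was 0.0485. The rise is thus not read as particular to pseudogenic loci. With the summit required inside the gene there were 5 pseudogenic loci and 249 functional genes. The listed share of the pseudogenic loci thus lay above that of genome windows and far below that of functional tRNA genes, with intervals that cover counting error only. The 141 loci drew on 134 distinct peaks, since 6 peaks were shared by more than 1 locus.

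**Figure D1:**
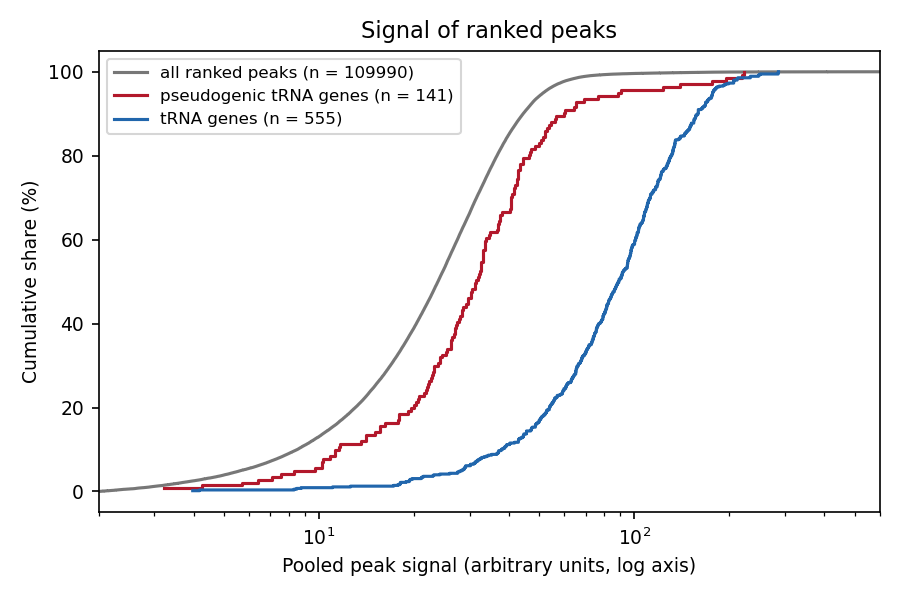
Cumulative share (%, vertical axis) of ranked peaks by pooled signal (arbitrary units, log axis) for pseudogenic tRNA genes, functional tRNA genes and all ranked peaks. The curve of the 141 pseudogenic loci, with a median of 31.4, runs close to that of all ranked peaks (23.8) and to the left of the curve of the 555 functional tRNA genes (89.2).

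The signal, a value in arbitrary units whose definition is not given in the sources used here, told the same loci apart. At pseudogenic loci the highest peak had a median pooled signal of 31.4 (n = 141, range 3.23 to 222), against 89.2 at 555 functional tRNA genes and 23.8 over all ranked peaks. In the first of the unnamed replicate columns of the pooled list the median of the pseudogenic loci was 18.6, and in the second it was 16.03. Of the 141 loci, 99 lay above the median of all ranked peaks. The 133 unlisted loci had a median of 30.4 and reached 76.8, while the 8 listed ones had a median of 158 and began at 89.0. The pooled signals of these groups did not overlap, a separation that the listing threshold itself favours. The highest functional tRNA gene reached 286, and 8 functional genes exceeded the highest pseudogenic locus.

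The 2 highest peaks were at C52E12.t1 and Y94H6A.t1. C52E12.t1, in an intron of the kinesin gene unc-104 and on its strand, had a signal of 113 in replicate 1 and 97.7 in replicate 2, and 222 in the pooled list, where it ranked 61 by signal. Its summit lay 8 bp after the 5′ end of the gene, and the nearest functional tRNA gene was 1295 bp away. Y94H6A.t1, between genes with the nuclear receptor gene nhr-277 nearest, had 132 in replicate 1 and 99.5 in replicate 2, with 220 pooled and rank 63. Its summit lay 18 bp after the 5′ end. Both replicates were high at both loci, where the highest value at an unlisted pseudogenic locus was 51.4 in the first replicate column and 36.04 in the second.

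C52E12.t1 is a near copy of a functional gene. Its closest functional tRNA gene by local alignment, the tRNA-Ala gene B0491.t2, was identical over 98.5% of 68 aligned bases. Over the full 72 bases they differed by G1A, G2C, G3C, G4T and A7G, counted from the 5′ end with the base of B0491.t2 first. All 5 differences fall in the first 7 bases, which form the 5′ strand of the acceptor stem, and 3 of 7 acceptor pairs were left in C52E12.t1. The A box match has 1 difference from the searched letters, T9G counted from the start of the box, and B0491.t2 has the same letters there. The sequence of B0491.t2 occurs in 8 functional genes, of which 4 had a listed peak, 2 only an unlisted one and 2 none. In the genes with a peak the pooled signal was 52.6 at B0491.t2, 63.4 at B0491.t1, 130 at Y38E10A.t1, 154 at T07H6.t1, 165 at T07H6.t2 and 286 at F15G9.t1. C52E12.t1 lay within that range, above 5 of the 6 genes with a peak.

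Y94H6A.t1 had no near copy among functional tRNA genes, with 71.2% of 66 aligned bases identical to the tRNA-Thr gene C16C8.t2 and 2 of 7 acceptor pairs. That identity was ordinary for listed loci, whose median was 71.8%. Y94H6A.t1 matched the A box without a mismatch and the B box with 1, G6A. Its peak, from 2740189 to 2740262, was shorter than that at any other listed locus. Of the 50-base words in the region of Y94H6A.t1, 44.8% occurred once in the genome, the lowest share among the listed loci. At C52E12.t1 that share was 80.9%, and at the other 6 listed loci the sequence was unique throughout. How reads from repeated sequence were placed is not given in the sources used here, and its part in these signals was not tested.

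Among the listed loci, 3 sit at the start of a snoRNA gene. D1046.t1, in an intron of cfim-2, which encodes a subunit of a pre-mRNA cleavage factor, had 77.7 in replicate 1 and 122 in replicate 2, with 196 pooled and rank 84. T08B2.t1, at chromosome I 6212821 to 6212892 (-) in an intron of the phenylalanyl-tRNA synthetase gene fars-1, had 93.8 and 82.5, with 176 pooled and rank 120. F19H8.t1, in an intron of the mlt-10 related gene mltn-9, had 71.0 and 64.3, with 140 pooled and rank 238. Replicate 2 was the higher one at D1046.t1 and replicate 1 at the others. In each case an annotated snoRNA gene on the same strand overlapped the 3′ end of the pseudogenic locus, by 9 bp for D1046.6, 4 bp for T08B2.13 and 8 bp for F19H8.6. SnoRNAs guide the chemical modification of other RNAs in the nucleolus.

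At these loci the summit lay 54 bp (D1046.t1), 85 bp (T08B2.t1) and 46 bp (F19H8.t1) before the 5′ end of the snoRNA gene. Measured from the pseudogenic locus the summits were 12 bp and 17 bp after the 5′ end of D1046.t1 and F19H8.t1 and 16 bp before that of T08B2.t1. They had 2 B box mismatches at D1046.t1 and T08B2.t1 and 1 at F19H8.t1, and 1, 1 and 2 A box mismatches in the same order. The median over all 209 loci was 1 for either box, so each had 1 box less well matched than the median. The A box match of D1046.t1 begins only at base 21 of the gene. D1046.t1 and F19H8.t1 differ from the searched B box by G1T with T3A and by A7C, counted from the start of the box. Neither T08B2.t1 nor F19H8.t1 had a run of 4 T within 50 bp of the 3′ end, whereas 194 of all 209 loci did (92.8%). Another locus, Y59E1B.t1 on chromosome X, also overlapped a snoRNA gene on its strand, Y59E1B.14, by 9 bp, but it had no peak in the pooled ranked list. Replicate 2's own ranked list had a peak of 31.5 there and that of replicate 1 had none. No other pseudogenic locus had an annotated snoRNA, small nuclear RNA or rRNA gene within 200 bp, so 3 of 4 such loci were listed. The look-up of snoRNA genes was made after the listed loci were seen. The share of all snoRNA genes with a listed peak was not counted, so 3 of 4 cannot be set against it. Whether a peak belongs to the pseudogenic locus or to the snoRNA gene cannot be told apart at this spacing, and without these loci 5 listed ones are left.

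The last 3 listed loci had lower signals. Y69A2AR.t3, beyond the 5′ end of the gene gfrl-1, had 77.5 in replicate 1 and 56.2 in replicate 2, with 123 pooled and rank 312. Y69A2AR.t1, in an intron of gfrl-1 and on its strand, had 50.9 and 39.3, with 91.0 pooled and rank 553. Y53G8B.t9, between genes with the magnesium transporter gene nipa-1 nearest, had 54.0 and 31.9, with 89.0 pooled and rank 587. Replicate 1 was the higher one at all 3. Their summits lay further into or past the gene, at 80 bp, 159 bp and 69 bp after the 5′ end, so that those of Y69A2AR.t3 and Y69A2AR.t1 fell downstream of it. All 3 matched the A box without a mismatch, and their B boxes differed by 0 positions at Y69A2AR.t1, by T9C at Y53G8B.t9 and by T9A and C11T at Y69A2AR.t3. Y69A2AR.t1 and Y53G8B.t9 were also the listed loci that passed the threshold in neither replicate's own list, while the other 6 passed in both.

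**Figure D2:**
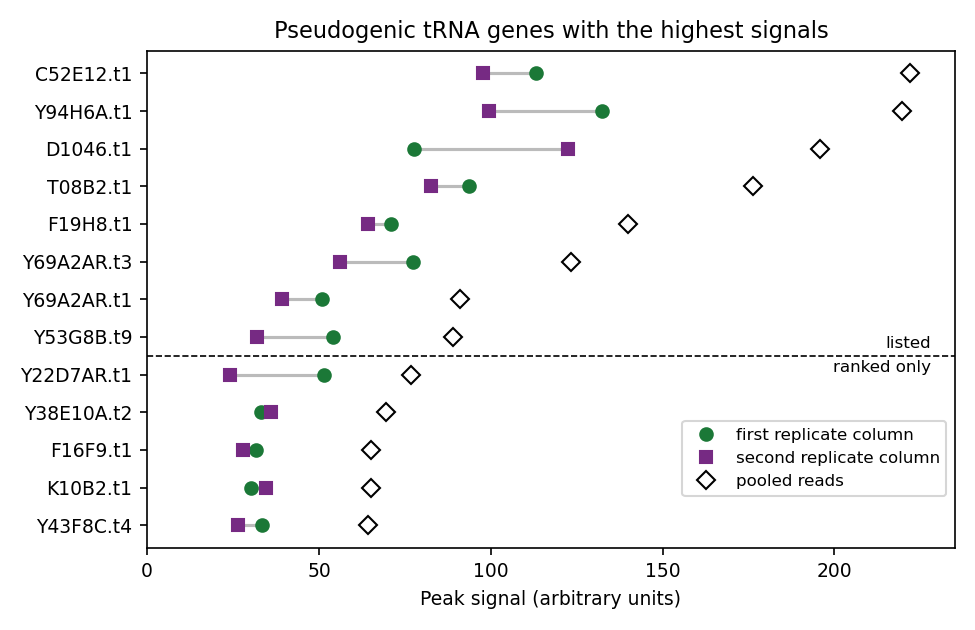
Peak signal (arbitrary units, horizontal axis) of the 8 listed pseudogenic tRNA genes and the 5 strongest unlisted ones, with the pooled value and both replicate columns of the pooled list drawn as separate points. The listed loci run from 89.0 to 222 in the pooled list, and the unlisted ones stop at 76.8.

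The 5 strongest unlisted loci lay between 64.3 and 76.8 in pooled signal. Y22D7AR.t1, on chromosome III with Y46E12A.3 nearest, had the highest unlisted signal, with 51.4 in replicate 1, 24.2 in replicate 2 and 76.8 pooled. It was in the authors' other thresholded pooled set, which held 9 pseudogenic loci, those 8 and this one. It matched both boxes without a mismatch and kept 2 of 7 acceptor pairs. Y38E10A.t2, in an intron of rgs-4 and on the opposite strand, had 33.2 and 36.04 with 69.4 pooled. Its global IDR of 0.0103 was the nearest outside the threshold, and that of Y53G8B.t9, at 0.00424, was the nearest inside it. F16F9.t1 on chromosome X had 31.8 and 27.8 with 65.1 pooled. K10B2.t1 on chromosome II had 34.6 in replicate 2 and 65.1 pooled, with no summit in its region in replicate 1's own ranked list, while the first replicate column of the pooled list gave 30.2. Y43F8C.t4 on chromosome V, near the gene of the DM-domain transcription factor DMD-3, had 33.4 and 26.4 with 64.3 pooled. At Y22D7AR.t1 replicate 1 was far above replicate 2, and at Y38E10A.t2, F16F9.t1 and Y43F8C.t4 the replicates were close.

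Agreement between the replicates was described in the replicate columns and in the replicates' own lists. Over the 141 loci the 2 replicate columns had a Spearman rho of 0.357 and a Pearson r of 0.477 on log2 values, and over the 133 unlisted loci 0.234 and 0.262. Over 555 functional tRNA genes they were 0.733 and 0.697. Between the replicates' own ranked lists they were 0.544 and 0.727 over the 59 pseudogenic loci with a pooled peak and a value in both lists, and 0.692 and 0.692 over 484 functional genes. The rho was thus lower over pseudogenic loci in both comparisons, and the r only between the replicate columns. These are descriptions across loci of the same 2 libraries, and no test was made of them. Of the 133 unlisted loci 51 had a ranked peak in both replicates' own lists. The first column was the higher one at 90 of 141 loci and at 7 of 8 listed ones, and at 56.9% of all ranked peaks.

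Most listed loci had no close relative among the pseudogenic loci. Sequences were grouped into families by joining loci with at least 80% identical bases, a grouping made after the listed loci were seen. The 209 loci comprised 181 distinct sequences, and 158 of them fell into 12 families of 2 or more. Only Y53G8B.t9 of those 158 had a listed peak (0.633%, interval 0.0160 to 3.48%), against 7 of the 51 loci without a relative (13.7%, interval 5.70 to 26.3%). Because the 158 are relatives of each other, the first interval, which takes loci as independent, is likely too narrow. Without the 3 loci that overlap a snoRNA gene, 4 of the 51 were listed (7.84%, interval 2.18 to 18.9%). Any ranked peak was found at 65.8% of the loci in families and at 72.5% of the others. The median pooled signal was 28.9 (n = 104) in families and 43.4 (n = 37) without a relative.

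The 3 largest families held 128 loci. The family of K02E7.t1 had 69 members, 50 of them on chromosome V, and 55 had an unlisted peak and 14 none, with a highest signal of 64.3. The family that includes VW02B12L.t1 had 37 members, of which 11 had an unlisted peak and 26 none. The family of F56D12.t1 had 22 members, all with both boxes within 1 mismatch, and 1 was listed, 17 had an unlisted peak and 4 none. In the family of 37 a median of 7.31% of the 50-base words of a region occurred once in the genome, against 100% in the families of 69 and 22. Of these 3 families it was also the one in which most members had no ranked peak.

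Across all loci the same measure largely set the family of 37 apart from the rest. Of the 40 loci with at most 50% unique words, 12 had any ranked peak and 1, Y94H6A.t1, was listed. Most of the 40 were the family of 37, with 11 of the 12 peaks, so repetition and family cannot be told apart here. Of the 169 others, 129 had a ranked peak (76.3%) and 7 were listed (4.14%). Among loci with more than 50% unique words, 1 of 119 in families and 6 of 50 without a relative were listed. Exact copies, which 36 loci had, were again mostly members of the family of 37 and are no separate view. None of the 36 was listed, and 10 had a ranked peak. Because the 36 are copies of few sequences, no interval is given for this share. The most frequent sequence occurred 12 times over 5 chromosomes, and 3 of its copies had a peak, with signals from 7.57 to 24.2, while 9 had none. Functional tRNA genes with exact copies, of which 469 were annotated, had a ranked peak at 92.5% and a listed one at 64.6%, and their regions had a median of 91.5% unique words over all 612 genes. Whether reads at repeated loci were discarded before peaks were called was not tested.

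**Figure D3:**
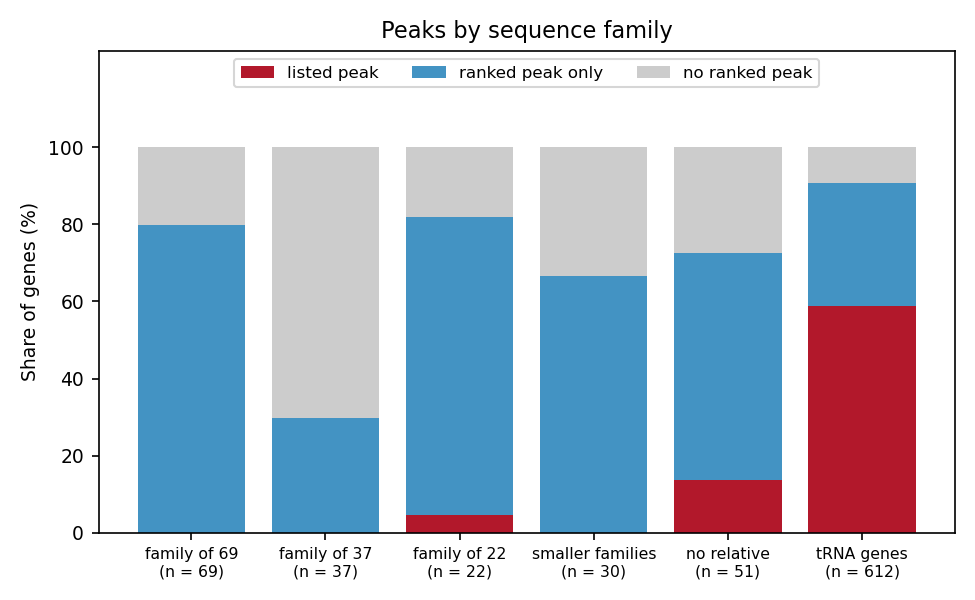
Share of pseudogenic tRNA genes (%, vertical axis) with a listed peak, with only an unlisted ranked peak and with none, for the largest sequence families, the smaller families and loci without a relative, with functional tRNA genes as the last bar. Listed peaks make up 7 of the 51 loci without a relative and 1 of the 158 in families.

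Box matches were common at pseudogenic loci with and without a peak. A B box within 1 mismatch was found at 5 of 8 listed loci, at 117 of 133 unlisted ones and at 62 of 68 without a peak. In all it was present at 184 of the 209 loci (88.0%) and without a mismatch at 58 (27.8%), against 78.6% and 43.3% of functional tRNA genes. In the genome, with each strand counted on its own, such a match was found in 0.137% of windows of 73 bp, the median length of the pseudogenic loci, and an exact one in 0.0263%. An A box within 1 mismatch was present at 161 loci (77.0%), against 82.5% of functional genes and 1.25% of windows, with an exact one in 0.0617% of windows. Both boxes were within 1 mismatch at 68.9% of the pseudogenic loci and 66.2% of functional genes. Because tRNA-like loci are found by their tRNA-like sequence, the presence of the boxes is in part what their annotation rests on.

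Of the 184 loci with a B box within 1 mismatch 5 were listed (2.72%, interval 0.888 to 6.23%), and of the 25 others 3 were (12%, interval 2.55 to 31.2%). Without the loci that overlap a snoRNA gene the counts were 4 of 184 (2.17%) and 1 of 25 (4%). With replicate 1 alone, or replicate 2 alone, 3 of the 184 were listed in place of 5. All 3 listed loci with a poorer B box, D1046.t1, T08B2.t1 and Y69A2AR.t3, had 2 mismatches. Of the 144 loci with both boxes within 1 mismatch 4 were listed (2.78%), where 250 of 405 functional tRNA genes with the same property were (61.7%). With both boxes exact, 1 of 28 pseudogenic loci, Y69A2AR.t1, and 22 of 31 functional genes were listed. Among the 141 loci with a peak, pooled signal had a Spearman rho of -0.08 with the number of B box mismatches. Loci within the same limit of box mismatches thus differed widely in listed share between the pseudogenic and the functional set. Which bases differed was not matched between the sets.

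**Figure D4:**
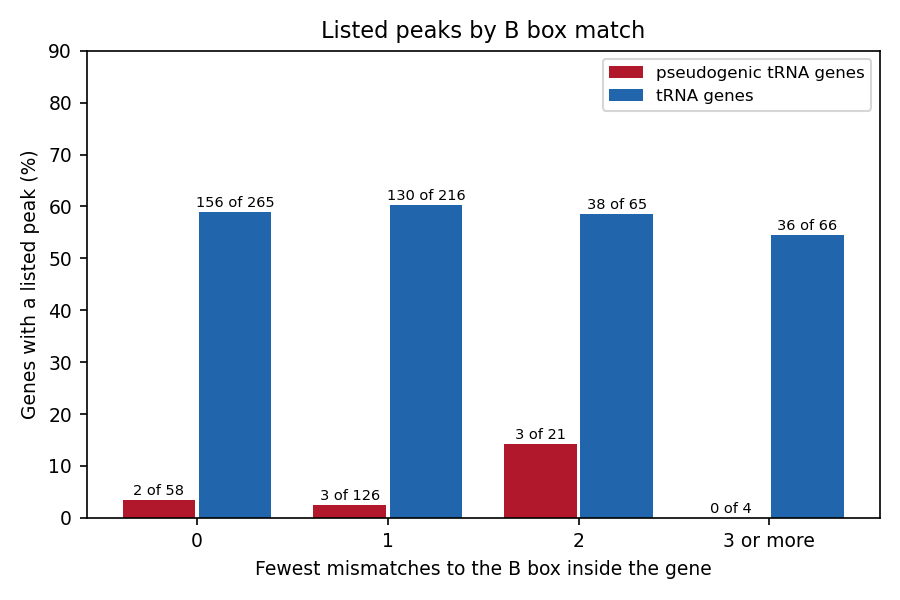
Share of genes with a listed peak (%, vertical axis) by the fewest mismatches to the B box inside the gene (horizontal axis), for pseudogenic and functional tRNA genes, with the counts written above the bars. Functional genes lie between 54.5 and 60.2% in every class, and pseudogenic loci between 0 and 14.3%.

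The acceptor stem was intact in few pseudogenic loci. All 7 pairs were present in 10 of 209 pseudogenic loci (4.78%), with a median of 5 pairs, and in 543 of 612 functional genes (88.7%), with a median of 7. None of the 10 pseudogenic loci with 7 pairs was listed, which allows a share of up to 30.8% (exact upper bound), and 7 of them had a ranked peak. The listed loci had 2 to 6 pairs. Among functional genes, 328 of 543 with all pairs (60.4%) and 32 of 69 with fewer (46.4%) were listed. Pairing of the 5′ and 3′ ends was counted after the peaks had been examined. A run of T followed 605 of 612 functional genes. Pseudogenic loci were a median of 76.2% identical to the closest functional gene over the aligned bases.

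Summits at the 8 listed loci lay inside the gene at 5, upstream at 1 and downstream at 2. They were within 30 bp of the 5′ end at 5 loci, of which 3 are those that overlap a snoRNA gene, and 69 to 159 bp past it at the other 3. At unlisted loci 38 of 133 summits lay inside (28.6%), 50 upstream and 45 downstream, where the gene makes up 15.4% of the region searched. Functional tRNA genes had 249 of 360 listed summits inside (69.2%) and 95 of 195 unlisted ones (48.7%). The unlisted pseudogenic loci thus had the smallest share of the 4 groups.

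**Figure D5:**
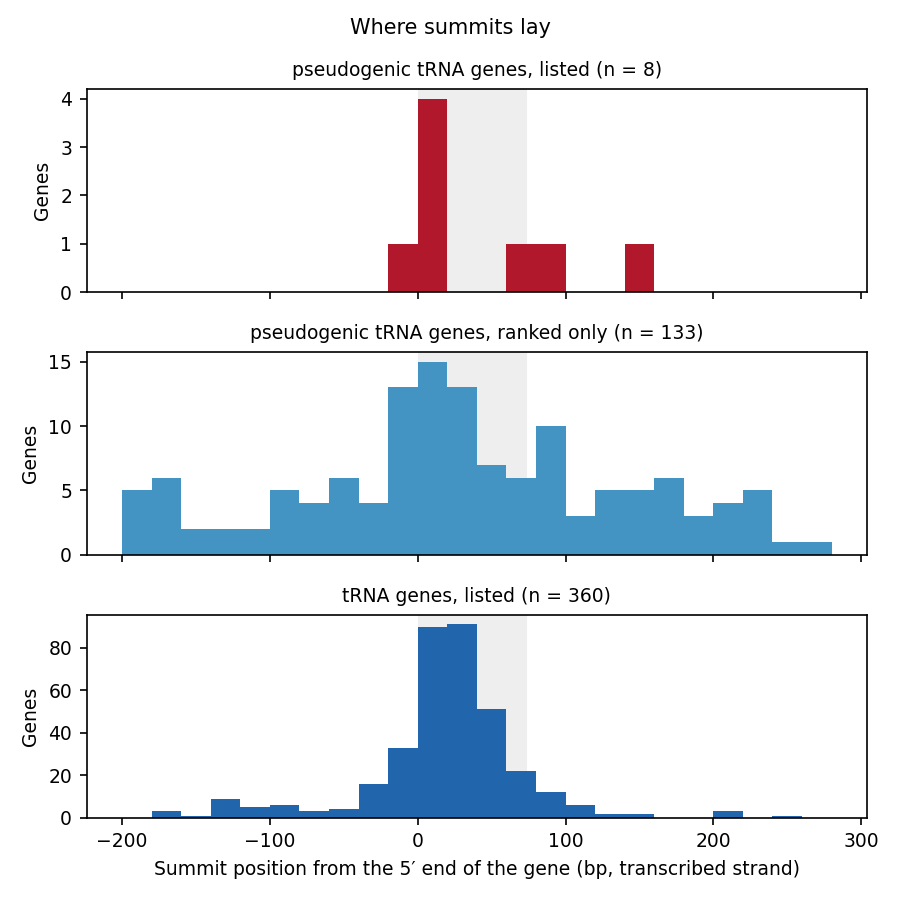
Number of genes (vertical axis) by the position of the summit from the 5′ end (bp, transcribed strand) for listed pseudogenic, unlisted pseudogenic and listed functional tRNA genes. The grey band marks the median gene length of 73 bp, and 5 of the 8 listed pseudogenic summits lie within 30 bp of the 5′ end while the 133 unlisted ones spread from -193 to 268 bp.

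Chromosome V held 91 of the 209 loci, and 0 of them were listed (exact upper bound 3.97%), 63 had an unlisted peak and 28 none, with a highest signal of 64.3. Chromosome X held 29 loci, also with 0 listed (upper bound 11.9%) and a highest signal of 65.1. The upper bounds on both chromosomes include the share of 3.83% over all loci, but that share itself counts the loci on V and X. It is therefore no comparison with the other chromosomes, and none was tested. The bounds also take loci as independent, while 50 of the 91 on V belong to the family of 69. Chromosome IV had 4 listed of 23, chromosome II had 2 of 23, chromosome I had 1 of 10 and chromosome III had 1 of 33. Functional tRNA genes were listed on every chromosome, at 39 of 78 on V and 163 of 276 on X. Introns of protein-coding genes held 113 pseudogenic loci (54.1%) and the rest lay between genes, with 0 in exons. In introns, 68 loci were on the strand of the host gene and 45 on the opposite one, and all 5 listed intronic loci were on the strand of the host. These 5 include D1046.t1, T08B2.t1 and F19H8.t1, which overlap a snoRNA gene on that strand.

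By best local alignment 66 loci were closest to a tRNA-Arg gene, 28 to tRNA-Ile, 26 to tRNA-Glu, 25 to tRNA-Gly and 21 to tRNA-His. No listed locus was among those closest to tRNA-Arg, tRNA-Ile, tRNA-Glu or tRNA-His. The families of 69 and 37 members were most often closest to tRNA-Arg and that of 22 to tRNA-Glu. Isotype and family were therefore not separated here. The listed ones were closest to tRNA-Gly, tRNA-Thr and tRNA-Val with 2 each and to tRNA-Ala and tRNA-Cys with 1 each. Functional genes of these 4 isotypes were listed at 24 of 44 for tRNA-Arg, 15 of 29 for tRNA-Ile, 27 of 41 for tRNA-Glu and 5 of 20 for tRNA-His.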

How the data were processed

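Chromatin immunoprecipitation of F26F4.8-EGFP was sequenced in 2 biological replicates of L4 larvae. The authors' deposited peak lists give per peak a signal value, a score, and −log10 values of the local and global IDR. The build was ce11, per the labels, while aligner, peak caller and depth were not given in the sources used here. The replicate columns of the pooled ranked list are unnamed. At pseudogenic loci the first equalled a value in replicate 1's own list 97 times and the second one in replicate 2's 90 times, and the reverse was seen 0 times.

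Loci, boxes, acceptor pairs (first 7 bases against the mirrored 3′ end), T runs (4 or more within 50 bp) and 50-base words were computed from RefSeq WBcel235 with Python 3.11.15, pandas 2.3.3, numpy 2.4.6 and Biopython 1.88 (match 1, mismatch -1, gap opening -2, gap extension -1). Intervals are exact Clopper-Pearson at 95% (scipy 1.17.1) and take loci as independent, which related loci are not. No test was run, since there was 1 group. The highest kept peak represents each locus. Named loci are all listed ones, the 5 strongest unlisted ones and those nearest to the IDR threshold on both sides. Alternatives used other windows, IDR thresholds, lists, single replicates and box definitions. The loci and lists were chosen with earlier results of these data known. Scripts were tested on simulated data. The replicates are labelled as biological, and no p-value is given.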

Additional observations from a re-analysis of the deposited data

How the results depend on the processing

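Of 39 recomputed values 25 stayed within the spread or within 1.5 times of the value reported and 14 moved. The 8 listed loci became 5 when the summit had to lie inside the gene (T08B2.t1, Y69A2AR.t1 and Y69A2AR.t3 were lost), 5 when summits near snoRNA, small nuclear RNA or rRNA genes were dropped (D1046.t1, F19H8.t1 and T08B2.t1) and 15 at an IDR of 0.05. Leaving out a replicate gave 6 and 6, without Y53G8B.t9 and Y69A2AR.t1, from lists of 376 and 366 peaks in place of 978. The other settings gave 6 to 9. The 5 listed of 184 loci with a B box became 3 without either replicate and 3 at an IDR of 0.001, 10 at 0.05, 2 of 58 with an exact box and 8 of 205 with up to 2 mismatches. Listed functional tRNA genes fell from 360 to 204 and 208 with 1 replicate, and neither they nor all peaks were counted at an IDR of 0.05. The median signal of 31.4 (n = 141) was 22.0 (n = 92) and 19.4 (n = 90) in the replicates' own lists, and 37.6 (n = 47) with the summit inside the gene. These medians are over different sets of loci, and how signals are scaled between the lists is not given in the sources used here. The cause of these moves was not tested beyond the smaller regions and lists that the settings define. The depth of each library is unknown, so a missing peak is a peak not ranked at the depth used. No paired analysis was possible because there was 1 group.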
